A study of Mus musculus with 4 samples.

Results

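The clustered histone genes are the many near-identical copies that encode the bulk histones H1, H2A, H2B, H3 and H4. They were followed here in Tregs, the regulatory class of CD4 T cells, which holds immune responses in check and depends on the transcription factor Foxp3. Members were all probes whose gene name on the array begins with Hist1h, Hist2h, Hist3h or Hist4h, which gave 57 probes for 49 gene names of 34821 on the array. They comprised 6 H1, 14 H2A, 12 H2B, 8 H3 and 9 H4 genes, of which 37 carry Hist1 names, 8 Hist2, 3 Hist3 and 1 Hist4. Tregs of spleen and thymus came from male C57BL/6 mice, either wild type (WT) or deltaDC, a name that the labels do not spell out and that in the field stands for mice depleted of dendritic cells. The 4 groups were thus the 2 genotypes in each of the 2 organs, and no age, promoter or targeted gene is given in the sources used here. Splenic CD4 T cells were enriched by negative selection and thymic ones with an antibody against CD8. The cells of 3 mice were pooled per genotype, live CD4+CD25+ cells were sorted without a stain for Foxp3, and their RNA was read on 1 array per group.

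Bulk histones are made when DNA is copied, so that each new genome can be packed. Core histones H2A, H2B, H3 and H4 form the nucleosome, and the linker histone H1 binds where DNA enters and leaves it. The messages of these genes end, in place of a poly(A) tail, in a short stem-loop that is bound by the protein Slbp, cut by dedicated factors, and used to destroy the message once DNA synthesis stops. Some of the genes can also make longer, polyadenylated messages in cells that do not divide. How far the labelling used here takes up messages without a poly(A) tail was not measured, so a signal is not an amount of histone message. Histone variants such as H2A.Z and H3.3 are encoded elsewhere in the genome and are made throughout the cell cycle.

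All 4 arrays lay on 1 slide with 1 scan. Between 48.7% and 50.7% of spots were well above background, and no spot was saturated. A value below is background-subtracted fluorescence in arbitrary units, in the order WT and deltaDC spleen, then WT and deltaDC thymus. Differences are log2 differences of this signal after each array was scaled to its 75th percentile. With 1 array a group there is no replicate error, so the error given is the SD between repeated spots of 1 probe at that brightness, carried to the difference. It leaves out the spread between mice and labellings, and no test can be made between 2 arrays. Treg genes were read on all 4: the 7 Treg markers, among them the general T cell genes Cd3e and Cd4, were above background on each array. Foxp3 read 10226, 10992, 9283 and 11360. Il2ra, which encodes the sorting marker CD25, read 25378, 15662, 29438 and 27409, a log2 difference of -0.9 between deltaDC and WT spleen. A difference in these sorted pools could reflect the number of cells that use a gene or the RNA per cell, which cannot be told apart.

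Histone genes are alike in sequence and differ in how their messages end, so the probes on which the results turn are shown first. A set of H2A probes of 60 bases each lie on the last codons of the coding sequence and end in a stop codon. Capitals mark the bases that differ from the Hist1h2ah probe where the pair overlap.
Hist1h2ah: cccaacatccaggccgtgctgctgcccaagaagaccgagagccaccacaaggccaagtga
Hist1h2af: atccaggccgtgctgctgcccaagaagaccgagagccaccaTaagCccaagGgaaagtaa
Hist1h2ak: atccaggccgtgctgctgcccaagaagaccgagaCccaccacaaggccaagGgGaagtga
Hist1h2an: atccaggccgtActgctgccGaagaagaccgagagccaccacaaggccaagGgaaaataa
Hist2h2aa2: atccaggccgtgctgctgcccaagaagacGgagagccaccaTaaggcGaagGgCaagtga
In mm9, the build of the files, these probes lie at chr13:22127035-22127094 (minus strand, Hist1h2ah), chr13:23626113-23626172 (plus, Hist1h2af), chr13:21845304-21845363 (minus, Hist1h2ak), chr13:21878695-21878754 (minus, Hist1h2an) and chr3:96043781-96043840 (minus, Hist2h2aa2). Over 54 shared bases, Hist1h2af, Hist1h2ak and Hist1h2an each differ from Hist1h2ah at 3 and Hist2h2aa2 at 5. The file lists 4 RefSeq transcripts for the Hist1h2ah probe and 4 for the Hist1h2an probe. These probes, together with those of Hist1h2ag, Hist2h2ac and the variant gene H2afj, form a chain of sequences with 85.1% to 95.8% identity, so their values are those of a shared H2A sequence and cannot be assigned to 1 gene. Probes of Hist1h4c, Hist1h4d, Hist1h4j and Hist1h4k form a second such chain, with 85.4% to 95.8% identity. Of all 57 member probes, 17 are listed with 2 or more RefSeq transcripts, 37 with 1 and 3 with none.

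Other probes reach the end of the message. The histone stem-loop was searched as GGNNCTTNTNAGNNCC on the probe strand, where N is any base. It stood whole in 6 member probes (10.5%) and in 7 of all 55681 probes (0.0126%). Windows of 30 bases around it are shown with the stem-loop in capitals.
Hist1h3i: ataacaaaaGGCTCTTTTCAGAGCCccctc
Hist1h3a: aattaaccaaaGGCTCTTTTCAGAGCCaca
Hist1h3g: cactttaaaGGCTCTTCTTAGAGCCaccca
Hist1h4m: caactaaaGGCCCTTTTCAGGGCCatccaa
Hist2h2bb: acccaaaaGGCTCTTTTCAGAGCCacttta
Hist2h2aa2: taaaaaGGCTCTTTTCAGAGCCacccactg
The 60-base probes that hold these windows lie, in mm9, at chr13:21874784-21874843 (minus, Hist1h3i), chr13:23853756-23853815 (minus, Hist1h3a), chr13:23627719-23627778 (plus, Hist1h3g), chr13:21903960-21904019 (plus, Hist1h4m), chr3:96074056-96074115 (plus, Hist2h2bb) and chr3:96043669-96043728 (minus, Hist2h2aa2). A further set of probes starts beyond the usual end of a histone message, and 4 of these hold a poly(A) signal, AATAAA or ATTAAA. The 3 with a position in the file are shown with the signal in capitals, which leaves out a Hist1h4i probe.
Hist1h2be: gtactgttcattATTAAAgcattcctgatt
Hist2h2bb: gttgtcagtttgAATAAAgacagagaaact
Hist3h2ba: gttcataatggtattAATAAAtttggttca
These probes lie at chr13:23675610-23675669 (minus, Hist1h2be), chr3:96082754-96082813 (plus, Hist2h2bb) and chr11:58762964-58763023 (plus, Hist3h2ba). The 2 signals are common letters, present in 8.77% of member probes and 13.7% of all probes.

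Of the 49 genes, 39 were well above background on all 4 arrays, 43 on at least 2 and 3 on none (Hist1h1d, Hist1h2bp and Hist1h2bq). All 8 H3 and all 9 H4 genes were above background on every array. The probes named for the testis histones differed in this. Hist1h1t and Hist1h2aa were above background on the deltaDC thymus array alone, at 18.8 and 23.9, while the probe named Hist1h2ba read 1205, 2491, 3392 and 3776. That probe starts at base 155 of its target, and whether it also reads messages of other H2B genes was not examined. Its signal therefore does not show that the testis gene was expressed.

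In spleen, clustered histone genes were higher in deltaDC than in WT Tregs. On these arrays 39 of the genes were measured, and 21 of them were at least 2-fold higher, against 4.92% of all 17904 genes measured, and 0 were at least 2-fold lower, against 3.27% of all genes. Their median log2 difference was 1.01, where that of all genes was -0.06. Many members lay close to the 2-fold line: 5 of the 21 were within 0.1 above it and 3 more genes within 0.1 below it. Without the 10 H2A genes, 13 of 29 were at least 2-fold higher and the median was 0.98.

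Among linker histones, Hist1h1b, which encodes H1.5, had signals of 513, 2591, 2006 and 1895. The WT spleen array stood alone at the low end, and deltaDC spleen was 4.38-fold above it (log2 difference 2.13 ± 0.08, spot error). Hist1h1a, encoding H1.1, read 181, 443, 597 and 821, a 2.13-fold difference in spleen. Hist1h1e, encoding H1.4 and the brightest H1 probe, read 5646, 12984, 5684 and 7956. Here deltaDC spleen was highest and WT thymus differed from WT spleen by -0.25 ± 0.09. The deltaDC value was 1.99-fold above WT spleen and just short of the 2-fold line. Hist1h1c, encoding H1.2, read 512, 559, 485 and 544 and showed no such rank (log2 difference in spleen -0.08 ± 0.08). The 4 measured H1 genes had a median difference of 1.04, which was 0.46 over all H1 genes with no filter on dim probes.

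H2A genes had a median of 1.25, and 8 of 10 were at least 2-fold higher. All of these 8 but Hist1h2ab belong to the chain of shared H2A sequence, so they are not independent readings. The largest difference among members measured on both spleen arrays was that of Hist1h2ab, with 4174, 25420, 17745 and 21100, or 5.28-fold in spleen (2.40 ± 0.08). Its WT spleen value lay far below the other 3, which spanned a narrow range. The 3 brightest H2A genes by mean signal were among those printed above. Hist1h2ah read 50188, 143100, 120102 and 130113, a 2.47-fold difference. Hist1h2af read 46684, 127148, 107949 and 120620, a 2.36-fold difference. Hist1h2ak read 44145, 122129, 101849 and 112273, a 2.40-fold difference. The spot error of each log2 difference was 0.08. In each of them WT spleen was the lowest array and deltaDC spleen the highest. Hist1h2an (24785, 91818, 73341 and 84550) was 3.21-fold higher. Hist1h2ag (32972, 113071, 100525 and 107968) was 2.97-fold higher. Both belong to the same chain, so their order of arrays, the same again, is not a separate reading. A second Hist1h2ak probe, at the start of its target, read 3402, 14486, 13451 and 13695, with a log2 difference of 1.88 in spleen. The exceptions were Hist2h2ab, dim throughout at 41.8, 64.6, 43.7 and 43.6, and Hist3h2a at 1594, 1619, 1368 and 1715. Hist3h2a differed by -0.18 ± 0.08 in spleen.

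H2B genes had the lowest median of the classes, 0.46 (0.30 with the median of a gene's probes). With no filter on dim probes it was 0.80, and H1 was lowest. Of the measured H2B genes, 2 of 8 were at least 2-fold higher. These 2 were Hist2h2be (139, 330, 488 and 595) and Hist2h2bb (520, 1202, 1314 and 1053). Hist1h2bm read 1423, 3240, 4099 and 4876, a 1.97-fold difference. The probe named Hist1h2ba ranked the arrays in the same way (1.79-fold). Both were lowest in WT spleen and highest in deltaDC thymus. Hist3h2ba read 1666, 1695, 1471 and 2130, with no difference of that size in spleen (-0.18 ± 0.08). Hist1h2bb was at 12.9 and not well above background in WT spleen, against 79.9, 78.6 and 62.3 elsewhere, which makes it at least 4.05-fold higher in deltaDC spleen.

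H3 genes had the highest median of the classes, 1.46, with 5 of 8 at least 2-fold higher. After normexp background correction their median was 0.77 and that of H2A, at 1.28, was the highest. Hist1h3f read 45.5, 218, 207 and 254, a 4.16-fold difference whose spot error is wide (2.06 ± 0.59) because the WT spleen spot was dim. Hist1h3c read 111, 388, 388 and 484 (1.60 ± 0.15). Hist1h3g read 21.6, 73.7, 165 and 120 (1.57 ± 0.59). In all 3 the WT spleen array was lowest by more than 2-fold. Hist2h3b read 837, 2831, 2567 and 3031 (1.55 ± 0.08). Hist1h3i read 111, 333, 396 and 503 (1.38 ± 0.15). The brightest H3 probe, Hist1h3d, which the file lists with 4 transcripts, read 25990, 40534, 37269 and 48183 and was 1.35-fold higher in spleen.

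H4 genes had a median of 0.98 (0.55 when the median of a gene's probes was taken), with 4 of 9 at least 2-fold higher. Hist1h4d read 8981, 22608, 14384 and 18525, a 2.18-fold difference. Hist1h4k read 16367, 38254, 25589 and 33272, a 2.03-fold difference. Hist2h4 read 16660, 37789, 24524 and 32224, a 1.97-fold difference. All 3 were highest in deltaDC spleen and lowest in WT spleen. Hist1h4h ran the other way, at 156, 115, 73.9 and 54.4, and was the lowest of the members measured on both spleen arrays (-0.65 ± 0.15). By gene name group, the medians in spleen were 1.05 for 28 Hist1 genes, 1.02 for 8 Hist2 genes and -0.18 for 2 Hist3 genes, and Hist4h4 stood at 1.01.

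**Figure D1:**
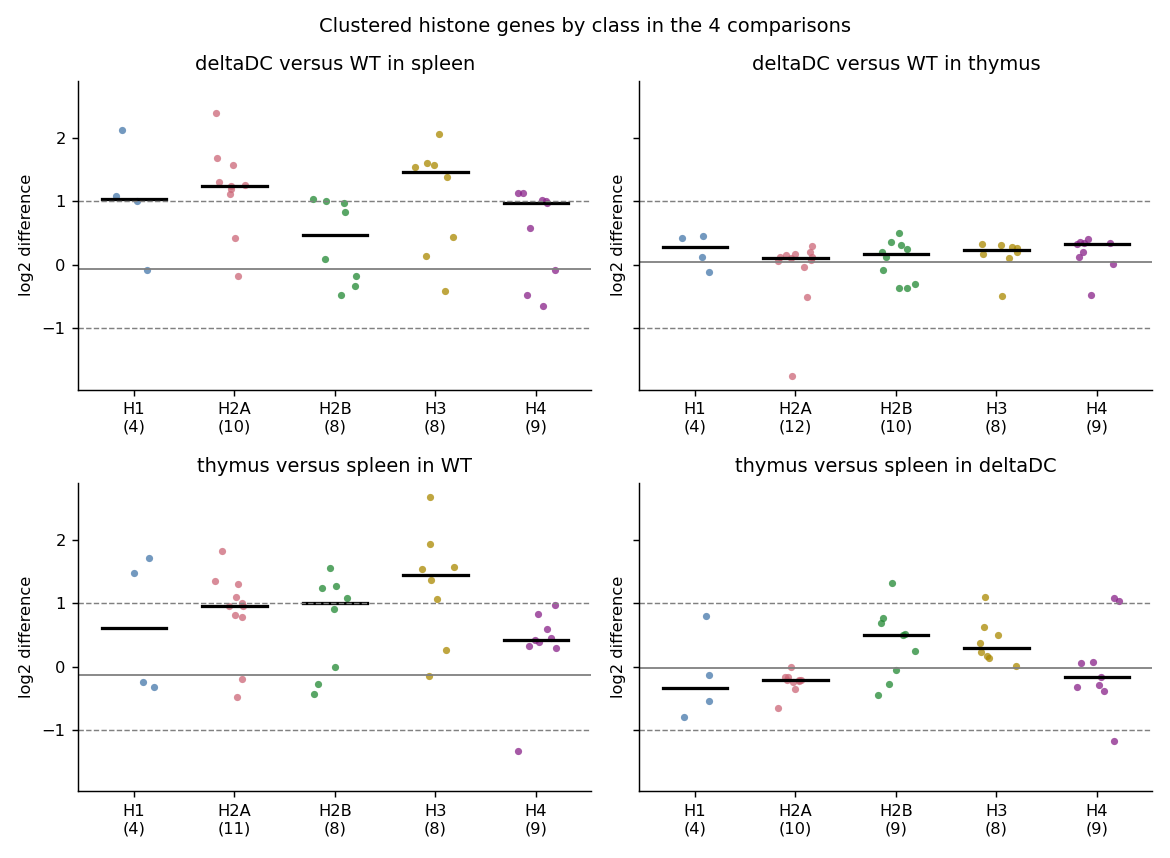
Log2 differences (vertical axis) of the clustered histone genes well above background on both arrays, 1 point a gene, by histone class with the number of genes in brackets, in the 4 comparisons; black bars are class medians, the grey line the median of all genes, and dashed lines 2-fold. Spleen medians run from 0.46 for H2B to 1.46 for H3, while in thymus all class medians between genotypes lie between 0.11 and 0.33.

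In thymus, the genotypes lay closer together for these genes, as they did over the whole array. Of all genes measured, 4.92% were at least 2-fold higher in spleen and 0.868% in thymus, and 3.27% and 0.82% at least 2-fold lower. Of 43 measured, 0 were at least 2-fold higher (0.868% of all 18424 genes) and 1 was at least 2-fold lower (0.82% of all genes), and the median was 0.17 beside 0.05 for all genes. The H2A median of 0.11 turned to -0.04 after quantile normalization and in the authors' matrix. The 1 lower gene was Hist1h2ac, whose probe lies far beyond the coding end. It read 37 in WT spleen, 12 and not well above background in deltaDC spleen, 94.7 in WT thymus and 28.9 in deltaDC thymus. Its difference in thymus was -1.75 ± 0.32, and in spleen it was at least 2.81-fold lower in deltaDC. Hist1h2ac was thus lower in deltaDC in both organs, against the direction of most members in spleen. It fell below the 2-fold line after normexp background correction, under which 0 genes were at least 2-fold lower in thymus.

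The difference between organs in the genotype difference, deltaDC minus WT in thymus less the same in spleen, had a median of -0.72 over the 39 genes that each array read above background. The median of all 17329 genes so read was 0.10. The value was below 0 in 28 of the 39 members (38.9% of all genes), at or below -1 in 14 (5.22% of all genes) and at or above 1 in 0 (3.24%). It uses up all 4 arrays and was not tested. It was most negative for Hist1h1b (-2.25), Hist1h2ab (-2.19) and Hist1h3g (-2.06), and most positive for Hist1h2bc at 0.7.

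**Figure D2:**
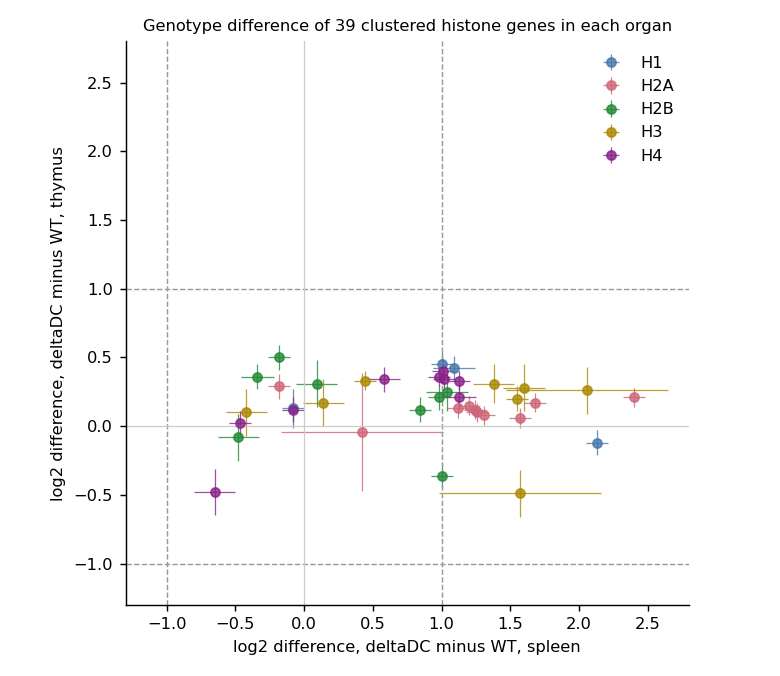
Log2 difference between deltaDC and WT in spleen (horizontal axis) and in thymus (vertical axis) for the 39 clustered histone genes well above background on all 4 arrays, coloured by class, with spot errors as bars and dashed lines at 2-fold. Points spread from -0.65 to 2.40 along the spleen axis and from -0.49 to 0.50 along the thymus axis.

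Thymus and spleen were then compared within each genotype. In WT, 17 of 40 measured genes were at least 2-fold higher in thymus than in spleen (5.35% of all 17762 genes) and 1 was at least 2-fold lower (4.49%), with a median of 0.93 against -0.13 for all genes. This comparison shares the WT spleen array with the genotype comparison in spleen, so the 2 sets of differences are not independent. H3 genes were again foremost, with 6 of 8 at least 2-fold higher in thymus and a median of 1.45. H2B had 4 of 8 and a median of 1.0, and H2A 5 of 11 and 0.95. The order of the H2A and H2B medians turned after quantile normalization (1.30 for H2A and 0.99 for H2B), in the authors' matrix (1.27 and 0.96) and after normexp (0.92 and 0.78). H1 had 2 of 4 and 0.61, a median that was -0.00 with no filter on dim probes. No H4 gene of 9 was at least 2-fold higher, and their median was 0.42. Hist1h3g differed most (2.68 ± 0.60), followed by Hist1h3f (1.93 ± 0.60) and Hist1h2ab (1.83 ± 0.08). At the other end stood Hist1h4h (-1.33 ± 0.16), Hist3h2a (-0.48 ± 0.09) and Hist3h2ba (-0.44 ± 0.09). Hist1h2bb was at least 3.84-fold higher in thymus.

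In deltaDC, 4 of 40 genes were at least 2-fold higher in thymus than in spleen (4.96% of all 18135 genes) and 1 was at least 2-fold lower (5.44%), and the median was -0.03 beside -0.02 for all genes. With arrays scaled to their median instead, 1 gene was higher and 1 lower. The highest were Hist1h2bg (111, 91.8, 251 and 244), Hist1h3a (132, 169, 331 and 383) and Hist1h4m (705, 589, 1276 and 1328). These 3 genes were higher on both thymus arrays than on either spleen array. The lowest were Hist1h4h (-1.17 ± 0.16), Hist1h1e (-0.80 ± 0.08) and Hist2h2ab (-0.66 ± 0.32). All 10 H2A genes measured on both arrays lay below 0 here, between -0.66 and -0.01, and all 8 H3 genes above it, between 0.01 and 1.09. Of these, 1 H2A gene lay above 0 after normexp, in the matrix and over the median of probes, and 1 H3 gene below 0 with arrays scaled to their median. Over all 18135 genes, 9443 lay below 0 and 8692 above it. Most of the 10 H2A genes belong to the chain of shared sequence, so they are not independent readings. Of the 2 deltaDC arrays, another 3 H2A genes were above background on that of thymus alone: Hist1h2ac was at least 1.79-fold, Hist1h2aa at least 1.48-fold and Hist1h2ae at least 1.24-fold higher there than in deltaDC spleen.

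Seen by array, WT spleen was the lowest of the 4 for 27 of the 39 genes. The share of all genes that were lowest on that array was not counted. It was at least 2-fold below each other array for 12 of them, where 1.84% of all 17329 genes above background on every array were. These were Hist1h1a, Hist1h1b, Hist1h2ab, Hist1h2ag, Hist1h2ah, Hist1h2an, Hist1h3c, Hist1h3f, Hist1h3g, Hist1h3i, Hist2h2be and Hist2h3b, and no H4 gene. No other array was at least 2-fold the lowest or the highest for any member. Over all 17329 genes, counts for these arrays ran from 13 (lowest in WT thymus) to 324 (highest in deltaDC spleen). With 1 array a group, a property of the WT spleen array and one of WT splenic Tregs cannot be told apart.

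**Figure D3:**
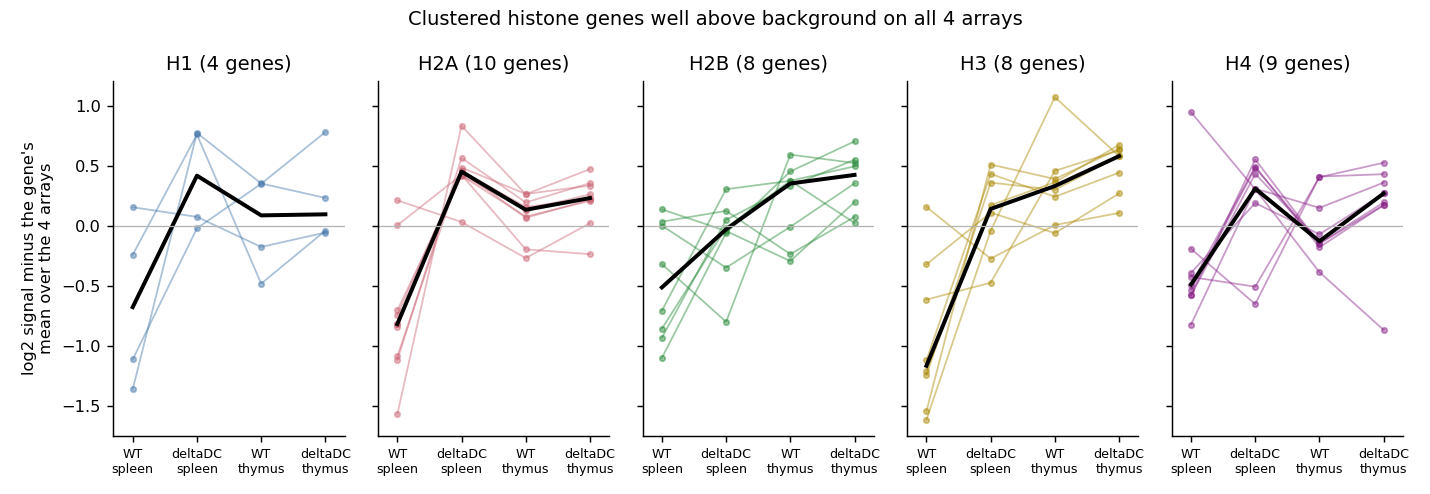
Log2 signal of each gene minus its own mean over the 4 arrays (vertical axis) on the arrays named below, for the 39 clustered histone genes above background on all of them; thin lines are genes and thick black lines class medians. WT spleen is the lowest array for 27 genes, and the share over all genes was not counted.

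Genes differed by where their probe lies on the message, a grouping made after the values were seen and therefore given without a test. Early probes (33) start at or before base 457 of the target in core histones and at or before base 663 in H1. Stem-loop probes (8) hold the stem-loop whole or cut by a probe end. Late probes (16) start at base 483 or beyond in core histones and at base 1342 or beyond in H1, and hold no stem-loop. Of 28 early probes measured in spleen, 18 were at least 2-fold higher in deltaDC (median 1.10). Of 7 stem-loop probes 4 were (median 1.0), and of 10 late probes 1 was (median -0.13). The late probe above 2-fold was that of Hist2h2be. In WT between organs, which shares the WT spleen array, the medians were 0.91, 1.08 and -0.01 in the same order. In deltaDC between organs they were -0.17, 0.5 and 0.66. Late probes had a lower G and C content, a median of 38.4% against 55.0% for early and 45% for stem-loop probes, and 8 of the 16 belong to H2B genes. The member probes of both chains of shared sequence shown above are all early. Their differences in spleen ran from 1.12 to 1.68 for H2A and from 0.58 to 1.13 for H4. Early probes are therefore not independent of each other. The part of these properties in the result was not tested.

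Some genes with more than 1 probe are given here probe by probe. For Hist2h2aa2, the coding probe printed above read 42911, 107263, 88050 and 98975, and the probe with the stem-loop 1049, 1099, 1277 and 1652. Their log2 differences in spleen were 1.12 and -0.14. For Hist2h2bb, the stem-loop probe differed by 1.0 between genotypes in spleen, whereas the late probe with AATAAA read 18.4, 21.7, 77 and 53.4 and was above background on all arrays but WT spleen. For Hist1h4i, the early probe (851, 929, 1807 and 2019) and 2 late probes (869, 959, 1608 and 1613 for the brighter) differed between genotypes in spleen by -0.08, -0.06 and 0.23. All 3 Hist1h4i probes were higher in thymus of either genotype, by 0.58 to 1.03. Hist2h4 has a pair of early probes: the bright one, given above, differed by 0.98 in spleen, and the other, at 50.6, 63.3, 110 and 124, by 0.12. For Hist4h4, the early probe read 3017, 7018, 4919 and 6687, and the late probe was not well above background on any array.

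**Figure D4:**
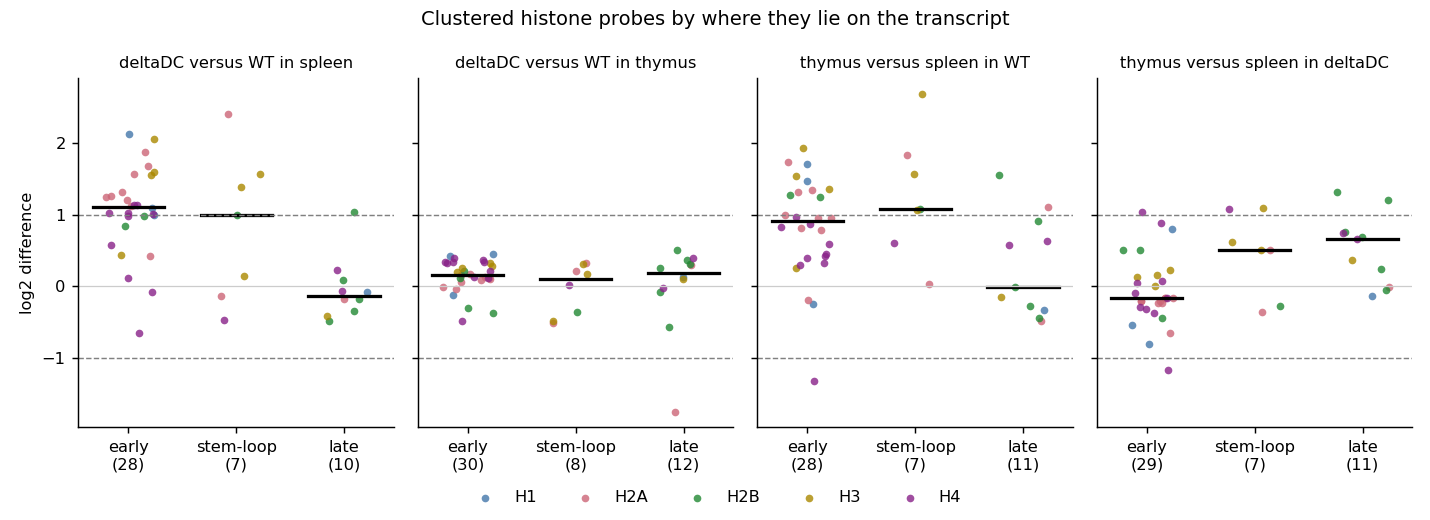
Log2 differences (vertical axis) of member probes well above background on both arrays, grouped by their place on the transcript (early, on the stem-loop, late; number of probes in brackets) and coloured by class, with medians as black bars and dashed lines at 2-fold. In spleen, early probes have a median of 1.10 and late probes of -0.13; between genotypes in thymus the 3 medians are 0.16, 0.09 and 0.19.

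A limma fit of genotype plus organ over all 4 arrays left 1 residual degree of freedom and treats the genotype difference as equal in both organs. It called 0 of 19396 genes for genotype at an adjusted p under 0.05 (0.0%), with 1045 genes at an unadjusted p under 0.05. Of the 43 members tested, 0 were called for genotype and 3 were at an unadjusted p under 0.05 (Hist1h1e, Hist1h2ac and Hist1h4h). The smallest adjusted p of limma among members was 0.793. For organ it called 125 genes (0.644%), of which 0 were members, with 3682 genes and 10 members at an unadjusted p under 0.05, and a smallest limma adjusted p of 0.115, for Hist1h4h. The count of 125 was 0 after quantile normalization, with arrays scaled to their median, in the authors' matrix and for genes above background on all 4 arrays, and 518 after normexp.

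Other genes of histone supply and of the cell cycle were counted beside the members. Of 10 measured variant genes outside the clusters, 2 were at least 2-fold higher in deltaDC spleen (H2afj and H1f0) and the median was 0.23. H2afj, whose probe belongs to the shared H2A sequence above, read 46485, 119563, 92081 and 111024. H2afz, encoding H2A.Z, read 55562, 63222, 58980 and 61444, and H3f3b, which encodes H3.3, read 26265, 34490, 30301 and 38516. The largest difference of either in any comparison was 0.31, for H3f3b between genotypes in thymus.

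None of 12 measured genes for histone transcription and 3' end processing differed by 2-fold in any comparison, with medians from 0.00 to 0.04. The brightest were Cpsf3, the cutting enzyme (5150, 6737, 5670 and 7253), Sympk, its scaffold (4296, 4662, 5449 and 4156), and Lsm10, of the U7 particle (2576, 3503, 2373 and 2838). Slbp, the stem-loop binder, read 807, 1570, 1682 and 1536 and, like many members, was lowest in WT spleen (0.75 there between genotypes). Npat, the coactivator of histone transcription, was not well above background on any array. Of 17 chaperone and assembly genes, 2 were at least 2-fold higher in deltaDC spleen (Asf1b at 1.39 and Chaf1a at 1.14), and the median was 0.11. The brightest of these, Npm1 (40992, 36373, 43920 and 52388), Rbbp4 (17113, 21368, 22465 and 23538) and Nap1l1 (16634, 18314, 20290 and 22228), differed by less than 2-fold throughout.

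Of 29 DNA replication and S phase genes measured in spleen, 7 were at least 2-fold higher in deltaDC, with a median of 0.71, and in WT 18 of 29 were at least 2-fold higher in thymus (median 1.18). Their brightest genes were Mcm6 of the replicative helicase (16551, 26219, 36640 and 38397), Pcna, the polymerase clamp (8829, 11861, 12922 and 14146), and Mcm4 (8056, 11571, 12822 and 12994). In deltaDC the median between organs was 0.43 for these genes, where that of the clustered histone genes was -0.03. Of 17 mitosis genes, 16 were at least 2-fold higher in deltaDC spleen (median 1.96) and all 17 in WT thymus over WT spleen (2.13). Mki67 read 1631, 7187, 8058 and 5964, Birc5 1300, 6286, 5235 and 4822, and Cdc20 895, 2470, 3206 and 3017. All 17 were lower in deltaDC than in WT thymus, with a median of -0.27, where that of the clustered histone genes was 0.17. Differences between these lists were not tested.

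**Figure D5:**
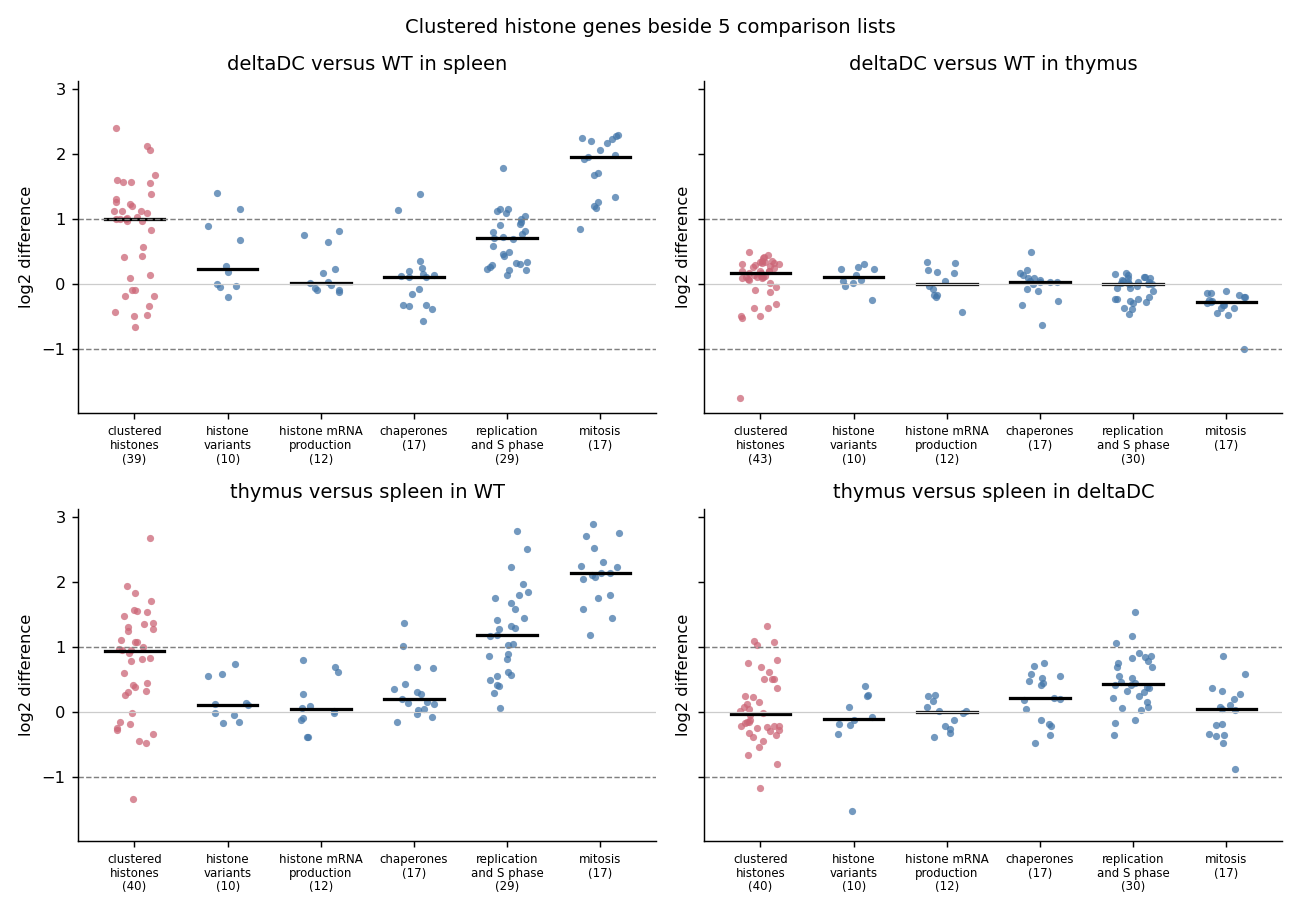
Log2 differences (vertical axis) of the clustered histone genes (red) and of 5 lists of genes (blue) in the 4 comparisons, for genes well above background on both arrays (number in brackets), with medians as black bars and dashed lines at 2-fold. In spleen between genotypes, the median is 1.01 for the clustered histone genes, 0.71 for replication genes and 1.96 for mitosis genes.

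Markers of some other cells moved with the same comparison, and those of others did not. Between genotypes in spleen, 0 of 4 measured B cell markers were at least 2-fold higher in deltaDC (median -0.24). Of 5 immature thymocyte markers 1 was (median -0.24), and the 2 measured dendritic cell markers lay at -1.56 and 2.4. In deltaDC over WT spleen, 6 of 7 measured NK cell markers were at least 2-fold higher (median 3.19), and the summed signal of all 9 was 3300 in WT spleen, 32100 in deltaDC spleen, 14000 in WT thymus and 17100 in deltaDC thymus. Of 9 neutrophil markers, 2 were above background in WT spleen and 9 in deltaDC spleen, with sums of 155, 10100, 1000 and 2650. Sums were 1860, 3710, 1960 and 2530 for 9 macrophage and monocyte markers, 1830, 5810, 4230 and 17700 for 7 erythroid markers, 2600, 7550, 9840 and 10200 for 9 dendritic cell markers, and 1960, 2190, 3790 and 7890 for 10 B cell markers. Nkg7 (2270, 23813, 7676 and 8111) and Gzma (337, 1764, 5702 and 7921) made up most of the NK cell sum on every array. Klrb1c read 74.8, 2573, 51.9 and 109, and Ncr1 and Klre1 were above background in deltaDC spleen alone. Hba-a1 and Hbb-b1 made up most of the erythroid sum on every array, and Cd79b most of the B cell sum in all but deltaDC thymus. S100a9 was most of the neutrophil sum in deltaDC spleen (6529). Among dendritic cell markers, H2-Ab1, an MHC class II gene, made up most of the sum in all but WT spleen (1110, 6735, 7815 and 9038), while Cd86 read 1444, 564, 1387 and 701. The defining B cell gene Pax5 and the dendritic cell genes Xcr1 and Clec9a were not well above background on any array. Immature thymocyte markers summed to 6470 and 7680 in spleen and 64800 and 62000 in thymus. Their part in the histone values was not tested.

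Promoters of 41 of the 49 genes were found in the RefSeq table of GRCm38.p6 through the probes' accessions, which leaves out Hist1h2al, Hist1h2bc, Hist1h3a, Hist1h3f, Hist2h2be, Hist2h3c2, Hist2h4 and Hist3h2bb-ps. In the 250 bases before the start, on both strands, CCAAT stood in 85.4% of them (34.5% of all 27025 promoters), TATAAA in 53.7% (13.0%), the octamer ATTTGCAT in 29.3% (1.61%) and AAACACAAA, from the H1 box, in 7.32% (0.629%). CCAAT stood in all 6 H1, 13 H2A, 9 H2B and 5 H3 promoters and in 2 of 8 H4 promoters. The octamer stood in 7 H2A and 5 H2B promoters and in no H1, H3 or H4 promoter. Matches are descriptions of letters and not of bound sites. Those of Hist1h2ab, the largest difference among genes measured on both spleen arrays, and of Hist1h3i, whose stem-loop is shown above, are given with these motifs in capitals.
Hist1h2ab: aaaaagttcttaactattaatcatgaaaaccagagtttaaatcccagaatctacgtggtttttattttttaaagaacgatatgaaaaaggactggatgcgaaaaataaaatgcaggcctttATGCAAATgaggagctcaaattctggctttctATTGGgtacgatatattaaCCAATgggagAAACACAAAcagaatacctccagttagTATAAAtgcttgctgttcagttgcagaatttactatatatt
Hist1h3i: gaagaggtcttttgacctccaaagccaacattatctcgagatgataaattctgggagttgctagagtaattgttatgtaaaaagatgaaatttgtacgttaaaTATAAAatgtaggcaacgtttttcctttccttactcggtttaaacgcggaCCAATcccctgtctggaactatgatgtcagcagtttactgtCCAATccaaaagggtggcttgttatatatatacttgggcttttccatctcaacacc
They lie at chr13:23750838-23751087 (plus strand, Hist1h2ab) and chr13:21783398-21783647 (minus strand, Hist1h3i). In 3 pairs, an H2A and an H2B gene start within 180 to 281 bases of each other on opposite strands, namely Hist1h2ae with Hist1h2bg, Hist1h2an with Hist1h2bp, and Hist1h2aa with Hist1h2ba. The probes named for these partners were not detected alike. Those of Hist1h2bg and Hist1h2bp are late probes, while that of Hist1h2ae is a stem-loop probe and that of Hist1h2an an early one. The Hist1h2an probe reads the shared H2A sequence, so its signal cannot be assigned to that gene. Whether the paired promoters differ in use was not tested. Hist1h2bg, Hist1h2an and Hist1h2ba were well above background on every array, while Hist1h2ae was so on the 2 thymus arrays (14.1, 16.6, 30.4 and 21.9), Hist1h2aa on 1 and Hist1h2bp on none.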

How the data were processed

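RNA of CD4+CD25+ cells, 10 ng per array, was labelled with Cy3 (Low Input Quick Amp kit) for 4 one-colour Agilent arrays, per the labels. The scanner files give the spots' intensity, background-subtracted and detrended within each array per the file headers; they were written by Agilent Feature Extraction 10.7.3.1, and other deposited columns are 0 or 1 flags. The authors also deposited a matrix of log2 values, quantile normalized per its header, with column medians of 4.10, 4.11, 4.15 and 4.10; its offset is unknown, and each column's highest correlation was with its own array's scanner values (Pearson r across genes 0.997 for each). The matrix served as an alternative.

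Outlier spots were removed (0 among members), and log2 intensities were taken relative to the 75th percentile of their array (340.0, 392, 406 and 417). Spots of 1 probe were averaged, and each gene was represented by its brightest probe on average. A gene was measured in a comparison when well above background on both arrays. Where only 1 array read a gene above background, a bound was computed against the other array's lowest signal well above background, or against the gene's own dim signal if that was higher. Differences of at least 2-fold were counted. Spot errors came from those of 432 probes spotted more than once that were well above background on the array. Above 10000 units they rest on 11 to 18 probes an array. Genotype plus organ was fitted with limma 3.58.1 (R 4.3.3), with Benjamini-Hochberg adjustment over all genes above background on at least 2 arrays. Counting and fit were tested on simulated data. For the fit, these had the same spread for every gene and the same genotype difference in both organs. They therefore do not show how the fit treats a difference seen in spleen only. Alternatives were normexp with offset 50, median and quantile scaling, the matrix, other filters, other rules for probes, 1.5-fold, and 1 factor alone.

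Members, gene lists and the rule for named genes were chosen with earlier results of these data known. The rule names the 3 brightest genes of each class, up to 10 genes at least 2-fold different between genotypes in each organ and direction, the 3 largest organ differences each way, the 3 largest bounds, and the 3 brightest genes of each list of histone or cell cycle genes. Other members and marker genes named were chosen after their values were seen. Sequences come from the scanner files (mm9) and RefSeq promoters (GRCm38.p6).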

Additional observations from a re-analysis of the deposited data

Results flagged for a closer look

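In 3 genes, Hist1h1b, Hist1h3g and Hist2h2bb, single arrays gave genotype differences of opposite sign in the organs, each beyond its spot error and at least 2-fold in spleen. For Hist1h1b the difference was 2.13 in spleen and -0.12 in thymus, a thymus minus spleen value of -2.25. The spot error of its thymus difference, an SD, was 0.09, so the sign in thymus is uncertain. For Hist1h3g it was 1.57 and -0.49, a value of -2.06, and its spleen difference was as low as 0.52 under the alternatives. For Hist2h2bb it was 1.0 and -0.36, a value of -1.36. Each rests on 4 single arrays, and the difference between organs was not tested.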

How the results depend on the processing

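With 1 array a group no array could be left out without losing the residual degree of freedom. The labels give no replicate numbers; the fit of genotype plus organ compares genotypes within organ. Under the alternatives, 17 to 24 genes were at least 2-fold higher in deltaDC spleen (25 at 1.5-fold), with medians from 0.93 to 1.07. In deltaDC spleen 2 genes were lower with no filter on dim probes and 1 at 1.5-fold. In thymus between genotypes, 1 gene was higher with no filter, and 0 were lower after normexp or when above background on all 4 arrays was asked. In WT between organs, 0 genes were lower after normexp and 2 with no filter, and the median was 0.81 after normexp and 1.05 after quantile normalization. In deltaDC between organs, 2 genes were higher after normexp, 1 with median scaling and 8 at 1.5-fold, 0 were lower after normexp and 3 at 1.5-fold, and the median was -0.12 with median scaling and 0.06 over the probes of a gene. Limma called 0 members for genotype and for organ in every alternative run. Of 110 named differences, 12 changed sign in some setting. Beyond spot error on both sides were 3: Hist1h2ah between genotypes in thymus to -0.08 (quantile), Hist1h2ak there to -0.10 (the matrix), and Hist2h4 between organs in deltaDC to 0.28 (median over its probes). Hist1h2ag between genotypes in thymus, at 0.06 and within spot error, was -0.12 in the matrix. None of the 35 named differences of at least 2-fold changed sign under the 5 alternatives of signal, scaling and probe. Some fell below 2-fold, among them Hist1h3g between genotypes in spleen (0.52) and Hist1h2ac between genotypes in thymus (-0.83). Causes were not tested. Signals under 50 units carry spot SDs of 0.300 to 0.585 log2 units, which limits Hist1h2ac, Hist1h3f, Hist1h3g and Hist2h2ab.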
